A study of Mus musculus with 6 samples.

Results

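The 10 genes described here encode ligands, receptors and binding proteins of platelet-derived growth factor (PDGF) and insulin-like growth factor (IGF) signalling. They were chosen by symbol among the 32285 genes listed for each library: the PDGF ligands Pdgfb, Pdgfc and Pdgfd, the PDGF receptors Pdgfra and Pdgfrb, the IGF ligands Igf1 and Igf2, the receptor Igf1r, and the IGF-binding proteins Igfbp4 and Igfbp5. Their RNA was counted by scRNA-seq in cells of the mouse rotator cuff enthesis, the insertion of tendon into bone, at 7 days post injury and surgical repair (dpi). There were 3 libraries from wild-type C57BL/6 mice and 3 from Nlrp3-/- mice, which lack the sensor protein of the NLRP3 inflammasome in every cell. Both groups were adult and had the same operation, and the genotypes were not described as littermates. Tissue was pooled, so the library is the replicate; the labels give neither the number nor the sex of the animals in it, and p-values measure only the spread between these libraries.

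PDGF ligands are secreted dimers that drive division and migration of mesenchymal cells. PDGF-B from the endothelium recruits pericytes through PDGF receptor beta, whereas PDGF-C acts mainly on receptor alpha, and PDGF-C and PDGF-D must be cleaved by proteases before they bind. IGF-1 and IGF-2 signal through the IGF-1 receptor, promote growth and matrix synthesis in tendon and cartilage, and are held in the extracellular space by IGF-binding proteins. IGFBP-4 mostly restrains IGF action until it is cleaved, while IGFBP-5 binds matrix and can restrain or prolong it.

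In the GENCODE annotation of mouse build GRCm38, Igfbp5 lies on chromosome 1 (72857932 to 72874884), Pdgfc on 3 (81036416 to 81214040), Pdgfra on 5 (75152292 to 75198215), Igf1r on 7 (67952827 to 68233668), Igf2 on 7 (142650766 to 142666816), Pdgfd on 9 (6168584 to 6378850), Igf1 on 10 (87858265 to 87937042), Igfbp4 on 11 (99041244 to 99054392) and Pdgfb on 15 (79995874 to 80014977). All are protein-coding. No position is given for Pdgfrb.

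The libraries held 97042713 to 134901999 unique molecular identifiers (UMIs, each standing for 1 captured transcript). After filtering, 80928 cells remained, at a median of 1762 to 6710 UMIs per cell, and any pair of libraries shared 27 to 97 cell barcodes. Clusters with most of their cells from a single library held 10717 cells and were set aside; 10522 of these came from Nlrp3-/- replicate 1, 50.0% of its cells, against 0.201% to 0.503% in the other libraries. Of the remaining 70211 cells, 67807 fell in 8 types with enough cells in each library, named from marker genes. These were mesenchymal cells, macrophages, neutrophils, endothelial cells, mural cells (pericytes and vascular smooth muscle), Kit and Cd34 progenitors, T and NK cells, and B cells. Each name means cells that resemble that type. Orders of levels between types are among these 8; a cluster of 292 cells led by muscle genes is given apart, after Igfbp5. UMIs were summed per library and type, and a level is given as CPM, the UMIs of the gene per 1000000 UMIs of that sum, which compares a gene between cells but not different genes with each other. Values are listed in the order of replicates 1, 2 and 3. Nlrp3 had 93.2, 165 and 136 CPM over the wild-type libraries and 0 UMIs in each Nlrp3-/- library. The Y-linked Ddx3y had 48.9 ± 8.74 CPM (SD, n = 3) in wild-type and 0 UMIs in Nlrp3-/- libraries, and Xist had 17 UMIs in the wild-type libraries together and 885 ± 87.9 CPM in Nlrp3-/-, so genotype and sex cannot be told apart in any comparison of genotypes. The labels of Nlrp3-/- replicates 2 and 3 name Nlrp4 and Nlrp5; the Nlrp4 family and Nlrp5 had 48 UMIs in all libraries together, too few to check this.

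Pdgfb was highest in endothelial cells. In the wild type its level there was 184, 184 and 304 CPM, in macrophages 34.2, 40.5 and 52.9 CPM, in T and NK cells 15.3, 23.3 and 29.7 CPM and in mesenchymal cells 0.447, 0.995 and 0.676 CPM. The lowest endothelial library lay above the highest macrophage library, and macrophages above T and NK cells, while T and NK cells and mural cells overlapped. Endothelial cells held 49.7% ± 3.33 and macrophages 46.0% ± 3.50 of all Pdgfb UMIs (SD, n = 3), in 343, 602 and 212 endothelial cells and 3946, 5560 and 2358 macrophages. The endothelial level was 4.48-fold above that of macrophages (log2 fold change 2.17 ± 0.24 SE, edgeR quasi-likelihood test, adjusted p = 7.36e-08), and macrophages were 55.6-fold above mesenchymal cells (edgeR adjusted p = 5.06e-13). Neutrophils, the other abundant myeloid cells, had 0.918 ± 0.374 CPM.

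Among the named macrophage subsets, osteoclasts, the bone-resorbing cells of this lineage, had 72.3, 76.6 and 142 CPM of Pdgfb. C1q Mrc1 macrophages, which carry genes of resident macrophages, had 37.5, 45.5 and 54.7 CPM, and Ly6c2 Ccr2 monocytes, which carry genes of recent arrivals from blood, had 1.23, 1.88 and 1.87 CPM. Every osteoclast library was above every library of the other named subsets, and every monocyte library below them. Osteoclasts were 5.40%, 5.94% and 6.74% of wild-type macrophages and gave 32.8%, 35.0% and 49.3% of their Pdgfb UMIs. Against the mean of the other named subsets, Pdgfb was higher in osteoclasts (log2 fold change 2.31 ± 0.13, edgeR adjusted p = 1.65e-11) and lower in monocytes (-4.84 ± 0.26, edgeR adjusted p = 1.85e-11). Here and below, such a mean of subsets is a mean of their fitted log levels, not of their CPM.

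Pdgfd shared the leading source. Endothelial cells had 19.7, 24.3 and 26.3 CPM, mesenchymal cells 2.09, 2.46 and 3.91 CPM and macrophages 0.0869, 0 and 0 CPM. Endothelial libraries were above all others, and endothelial and mesenchymal cells held 56.4% ± 16.1 and 39.6% ± 15.2 of Pdgfd UMIs. The fitted excess of endothelial over mesenchymal cells was 7.19-fold (edgeR adjusted p = 7.05e-08). T and NK cells and B cells had 0 UMIs in all wild-type libraries.

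Pdgfc was mainly a mesenchymal ligand. Mesenchymal cells had 27.8, 30.7 and 41.7 CPM and held 81.6% ± 6.39 of its UMIs, while macrophages had 6.04, 6.53 and 8.92 CPM and endothelial cells 1.21, 1.33 and 2.16 CPM. No mesenchymal library overlapped with either. C1q Mrc1 macrophages, however, had 22.6, 25.3 and 35.5 CPM, a range that overlapped with the mesenchymal one, against 5.84, 4.88 and 6.55 CPM in Arg1 Spp1 macrophages. The excess of the C1q Mrc1 subset over the mean of the others was 4.48 ± 0.18 on the log2 scale (edgeR adjusted p = 7.75e-13). Dividing cells had the highest mean among named mesenchymal subsets, with 39.3, 37.9 and 60.6 CPM, and Pi16 Dpp4 progenitor fibroblasts the lowest, with 22.3, 17.7 and 17.4 CPM.

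**Figure D1:**
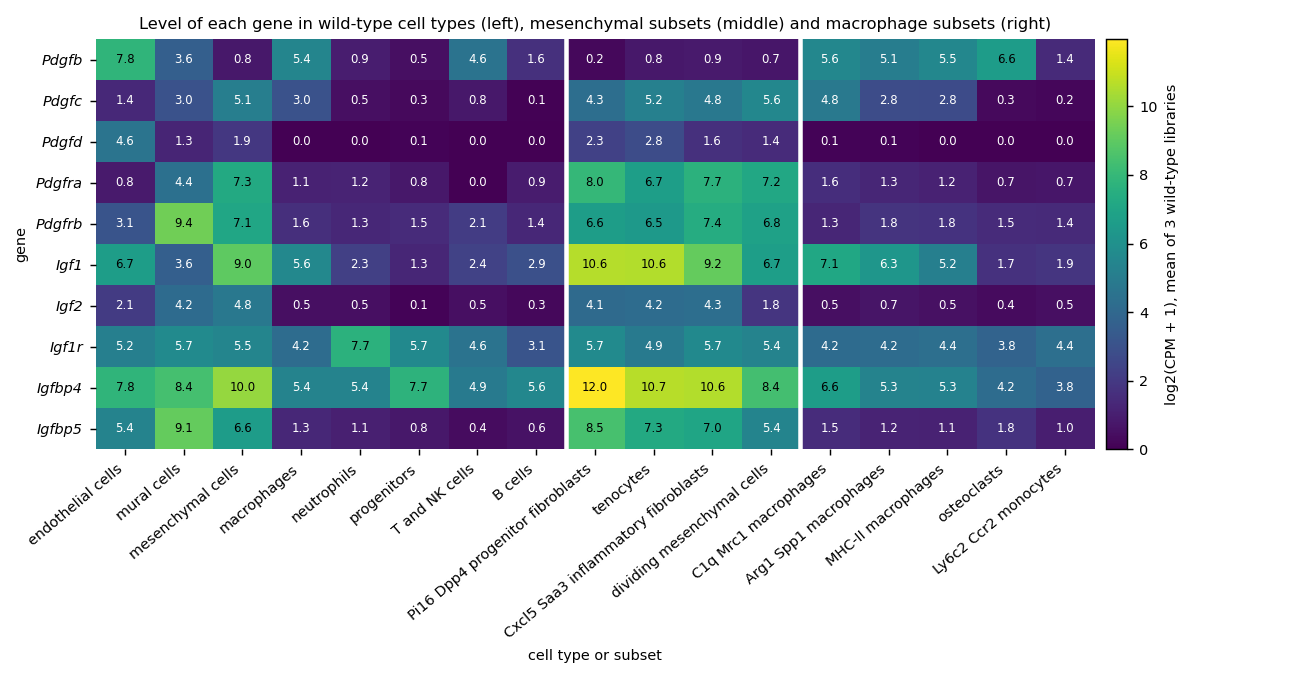
Mean level of the 10 genes in the wild type as log2(CPM + 1) over 3 libraries (colour and number), for the 8 cell types, 4 mesenchymal subsets and 5 macrophage subsets. Among the types, Pdgfb and Pdgfd are highest in endothelial cells, Pdgfrb and Igfbp5 in mural cells, Igf1r in neutrophils, and the other genes in mesenchymal cells. The small cluster led by Myog, Ttn and Acta1 is not drawn.

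The PDGF receptors marked receiving cells. Pdgfra, the receptor typical of fibroblasts, had 125, 174 and 159 CPM in mesenchymal cells, which held 97.9% ± 0.268 of its UMIs. In mural cells it had 4.34, 1.87 and 54.1 CPM, high in wild-type replicate 3 alone. Marker genes of mesenchymal cells summed to 14216, 13042 and 33255 CPM in the mural cells of these libraries, and their part in that value was not tested. All other types were at or below 2.19 CPM in each wild-type library. Pi16 Dpp4 fibroblasts were highest among the mesenchymal subsets, with 178, 242 and 324 CPM, and tenocytes, the tendon cells, lowest, with 89.1, 86.4 and 138 CPM. Both differed from the mean of the other subsets (log2 fold change 0.72 ± 0.11 and -0.86 ± 0.12, edgeR adjusted p = 2.46e-04 and 1.99e-04), although neighbouring subsets in the order overlapped, and the value in tenocytes was 0.10 without wild-type replicate 2.

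Pdgfrb, the receptor for PDGF-B and PDGF-D, had 596, 598 and 782 CPM in mural cells. Mesenchymal cells had 109, 153 and 134 CPM, endothelial cells 5.64, 11.9 and 5.41 CPM, and the blood-derived types were at or below 4.85 CPM. Mural, mesenchymal and endothelial cells did not overlap. Mural cells were 4.12-fold above mesenchymal cells (edgeR adjusted p = 2.47e-09), but the more numerous mesenchymal cells held 77.6% ± 7.15 of Pdgfrb UMIs and mural cells 18.2% ± 6.77. Cxcl5 Saa3 inflammatory fibroblasts, with 143, 188 and 177 CPM, were the highest named mesenchymal subset (log2 fold change 0.74 ± 0.13, edgeR adjusted p = 0.00324). The endothelial excess of Pdgfrb over macrophages was 1.73 ± 0.25 on the log2 scale, and it turned to -0.81 with finer clusters.

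Igf1 had 391, 300.5 and 839 CPM in wild-type mesenchymal cells, which held 87.9% ± 4.78 of its UMIs. Endothelial cells had 78.9, 63.7 and 159 CPM and macrophages 37.6, 46.8 and 57.1 CPM, and these types did not overlap. The mesenchymal level was 10.1-fold above that of macrophages (edgeR adjusted p = 4.21e-12) and 5.96-fold above that of endothelial cells (edgeR adjusted p = 5.90e-10). RNA free in droplets, pooled from barcodes with at most 100 UMIs, held 70.1, 93.2 and 249 CPM of Igf1, and neutrophils had 1.46, 4.10 and 6.08 CPM. Wild-type replicate 3 was the highest of the wild type in each of these.

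Among mesenchymal subsets, Pi16 Dpp4 fibroblasts had 1744, 1072 and 1909.6 CPM of Igf1 (39, 184 and 44 cells) and tenocytes 2269, 1017 and 1355 CPM (34, 105 and 511 cells). Cxcl5 Saa3 fibroblasts had 464, 254 and 984 CPM and dividing mesenchymal cells 55.6, 63.1 and 192 CPM. The first pair overlapped, and each of the others lay below it and apart from each other. Against the mean of the others, Igf1 was lower in dividing cells (log2 fold change -3.50 ± 0.32, edgeR adjusted p = 1.21e-06) and higher in Pi16 Dpp4 fibroblasts (1.88 ± 0.24, edgeR adjusted p = 6.33e-05) and in tenocytes (1.89 ± 0.24, edgeR adjusted p = 1.33e-04).

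In macrophages Igf1 was led by other subsets than Pdgfb. C1q Mrc1 macrophages had 107, 139 and 164 CPM and Arg1 Spp1 macrophages 73.4, 69.5 and 89.7 CPM, while osteoclasts had 0.560, 1.498 and 4.70 CPM and monocytes 2.47, 3.23 and 2.19 CPM. C1q Mrc1, Arg1 Spp1 and MHC-II macrophages did not overlap with each other, while osteoclasts and monocytes did. The C1q Mrc1 subset held 49.7%, 48.9% and 51.6% of macrophage Igf1 UMIs and exceeded the mean of the other subsets by 3.55 ± 0.12 on the log2 scale (edgeR adjusted p = 5.31e-14), whereas osteoclasts differed by -3.93 ± 0.26 (edgeR adjusted p = 1.48e-10).

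Igf2 had 37.6, 21.5 and 19.7 CPM in mesenchymal cells and 15.2, 23.1 and 13.2 CPM in mural cells, which overlapped, and was below 1 CPM in macrophages and neutrophils. Mesenchymal cells held 82.4% ± 16.0 of Igf2 UMIs, mural cells 2.59% ± 1.12, and the cluster led by muscle genes 28.9%, 5.65% and 0% in the 3 libraries. The mesenchymal source differed between libraries. An unnamed mesenchymal cluster with Dlk1, Tnxb and Abca8a among its leading genes gave 81.8%, 64.4% and 1.63% of the mesenchymal Igf2 UMIs in the wild-type libraries, where it held 115, 157 and 2 cells. It gave 1.25%, 1.71% and 7.75% in the Nlrp3-/- libraries, where it held 2, 5 and 11 cells.

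Igf1r, the receptor of both IGFs, was highest outside the mesenchyme. Neutrophils had 148, 205 and 261 CPM, mural cells 49.2, 33.7 and 70.6 CPM, progenitors 38.2, 46.9 and 63.7 CPM, mesenchymal cells 39.9, 38.1 and 50.3 CPM and macrophages 15.5, 15.9 and 21.1 CPM. Every neutrophil library was above every library of the other types, and mural cells, progenitors, mesenchymal and endothelial cells overlapped in the order. Neutrophils held 49.8% ± 3.98 of Igf1r UMIs and mesenchymal cells 24.0% ± 5.61. The fitted excess of neutrophils was 8.34-fold over mesenchymal cells (edgeR adjusted p = 8.16e-15) and 20.7-fold over macrophages (edgeR adjusted p = 6.07e-16). These folds are larger than the ratios of CPM. The fit uses TMM scaling, and the neutrophil marker genes alone summed to 335140.5 to 410403 CPM in neutrophils. The part of either in the larger folds was not tested.

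Igfbp4 had 1077, 916 and 1164 CPM in mesenchymal cells, which held 82.9% ± 3.74 of its UMIs. Mural cells had 263, 291 and 488 CPM, endothelial cells 220.3, 221 and 231 CPM and progenitors 203, 214 and 222 CPM, and macrophages and neutrophils were at or below 45.6 CPM. Among the 8 types, the mesenchymal libraries stood above all the others. Pi16 Dpp4 fibroblasts had 3777, 3135 and 4994 CPM and dividing mesenchymal cells 234, 287 and 486 CPM. Against the mean of the other subsets the log2 fold change was 2.08 ± 0.18 for the former (edgeR adjusted p = 2.24e-06) and -2.62 ± 0.24 for the latter (edgeR adjusted p = 1.06e-06).

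Igfbp5 had 450.2, 587 and 640.2 CPM in mural cells, 52.4, 77.9 and 156 CPM in mesenchymal cells and 42.9, 30.8 and 45.8 CPM in endothelial cells. None of these ranges overlapped, and the blood-derived types were at or below 2.33 CPM. Mural cells exceeded mesenchymal cells 5.08-fold (edgeR adjusted p = 1.51e-07). Of Igfbp5 UMIs, mesenchymal cells held 60.1% ± 21.6, mural cells 17.5% ± 6.03 and endothelial cells 4.92% ± 2.60, while the cluster led by muscle genes held 32.0%, 10.6% and 5.79%. As with Igfbp4, Pi16 Dpp4 fibroblasts had the highest mean of the named mesenchymal subsets (354 ± 178 CPM) and dividing cells the lowest (41.7 ± 22.8 CPM).

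The cluster led by the muscle genes Myog, Ttn and Acta1, with Cxcl12 and Adipoq also among its leading genes, had 76, 50 and 9 wild-type and 120, 20 and 17 Nlrp3-/- cells and was not tested. The 8 skeletal muscle markers summed to 3418, 1229 and 16.7 CPM in the wild type and 3762, 4.83 and 4925 CPM in Nlrp3-/-, so they were nearly absent from wild-type replicate 3 and Nlrp3-/- replicate 2, while mesenchymal markers summed to 1978, 8199 and 9899 CPM in the wild type and 5421, 42177 and 9606 CPM in Nlrp3-/-. Its Igfbp5 was 892, 2063 and 5275 CPM in the wild type, from 906, 502 and 316 UMIs, above mural cells in each library, and 2502, 1390.0 and 1967 CPM in Nlrp3-/-. Igf2 was 332, 222 and 0 CPM, from 337, 54 and 0 UMIs, above mesenchymal cells in replicates 1 and 2 and undetected in replicate 3. Igfbp4 was 420.4, 3025 and 6193 CPM, above mesenchymal cells in replicates 2 and 3 only. Pdgfc was above its leading type in 2 of the wild-type libraries, Pdgfd, Pdgfra, Pdgfrb and Igf1 in 1 each, all in replicate 3, and Pdgfb and Igf1r in 0. The part of other cells' RNA in these levels was not tested.

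Over the 7 comparisons between wild-type types, 62 of 70 tests of the 10 genes were past an adjusted p of 0.05 in edgeR. The types differ in most genes, so each count is read against the share of all 14593 genes tested. Mesenchymal cells against macrophages gave 9 higher and 1 lower of the 10 genes (71.7% of all genes were past the threshold), and mesenchymal cells against neutrophils 8 higher and 2 lower (82%). Mesenchymal cells against endothelial cells gave 8 higher and 2 lower (52.9%), endothelial cells against macrophages 8 higher and 1 lower (61.9%), and macrophages against neutrophils 3 higher and 2 lower (66.5%). Mural cells against mesenchymal cells gave 3 higher and 5 lower (32.4%), and mural cells against endothelial cells 7 higher and 3 lower (37.4%). As given for Igf1r, fitted changes against neutrophils can differ from the ratios of CPM. Pdgfb was 1 of the 2 lower in mesenchymal cells, at 0.706 ± 0.275 CPM beside 0.918 ± 0.374 CPM in neutrophils, with overlapping libraries. The part of TMM scaling in the counts against neutrophils was not tested.

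Between subsets, 38 of 66 tests passed. Dividing mesenchymal cells had 1 gene higher, Pdgfc, and 5 lower of 9 tested (36.3% of all genes past the threshold), Pi16 Dpp4 fibroblasts 4 higher and 1 lower (18%), tenocytes 1 higher and 2 lower (15.3%), and Cxcl5 Saa3 fibroblasts 4 higher (9.4%). In macrophages, where 6 of the genes were tested, C1q Mrc1 macrophages had 4 higher (37.9%), Arg1 Spp1 macrophages 4 higher (38.8%), MHC-II macrophages 3 higher (41.4%), monocytes 4 lower (60.8%), and osteoclasts 1 higher and 4 lower (73.2%). Pdgfb and Igf1 passed in all 5 macrophage subsets, and Pdgfrb in none of them. Each test is against the mean of the log levels of the other named subsets, which 1 very low subset can pull down. Pdgfb thus counted as higher in Arg1 Spp1 macrophages, at 32.7 ± 5.25 CPM (SD, n = 3), although only monocytes, at 1.66 ± 0.372 CPM, had a lower mean.

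Genes whose wild-type pattern was most like that of each member were sought over 21 types and subsets among 9469 genes, by the Pearson correlation of mean log2(CPM + 1). The units share libraries and cells, so the values are a description. Pdgfd was most like Clec14a (0.98), an endothelial surface protein, and Igfbp3 (0.97), and Pdgfra most like Sod3 (0.99) and the fibroblast growth factor Fgf7 (0.99). Pdgfrb was most like the calcium channel gene Cacna1c (0.99), Igf1 most like Gas6 (0.97), a ligand of the TAM receptors, and Igf2 most like the matrix protein gene Mgp (0.96). Pdgfb and Igf1r had the least close neighbours, with highest values of 0.90 (Bloc1s6) and 0.89 (Ccdc126).

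A list of 40 other genes of PDGF and IGF signalling was tested in the same comparisons. Of 38 tested, mesenchymal cells had 25 higher and 5 lower than macrophages (71.7% of all genes past the threshold), 21 higher and 9 lower than neutrophils (82%), and 15 higher and 13 lower than endothelial cells (52.9%). Endothelial cells had 22 higher and 9 lower than macrophages (61.9%), and macrophages 8 higher and 15 lower than neutrophils (66.5%). Mural cells had 10 higher and 13 lower than mesenchymal cells (32.4%), and 15 higher and 10 lower than endothelial cells (37.4%). The counts against neutrophils have the same limit as those of the members. Nrp1 had 31.4 ± 4.80 CPM in macrophages and 9.93 ± 2.81 CPM in neutrophils, and its fitted log2 change was 0.80. Sparc, a matrix protein that binds PDGF, had 11912 ± 583 CPM in mesenchymal cells and 79.5 ± 22.7 CPM in macrophages, and Grb10, an adaptor that dampens insulin and IGF receptor signalling, 210.5 ± 24.3 and 1.95 ± 0.417 CPM. Pdgfa, a ligand of receptor alpha, had 553 ± 40.5 CPM in mural cells and 82.9 ± 7.11 CPM in mesenchymal cells. Igfbp3 and the insulin receptor gene Insr were higher in endothelial cells (546 ± 365 and 86.9 ± 43.4 CPM) than in mesenchymal cells (34.2 ± 18.5 and 12.6 ± 4.28 CPM). The receptor adaptor gene Irs2 and the signalling adaptor gene Grb2 were higher in macrophages (50.6 ± 6.07 and 281 ± 10.9 CPM) than in mesenchymal cells (22.4 ± 8.54 and 51.9 ± 2.64 CPM).

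**Figure D2:**
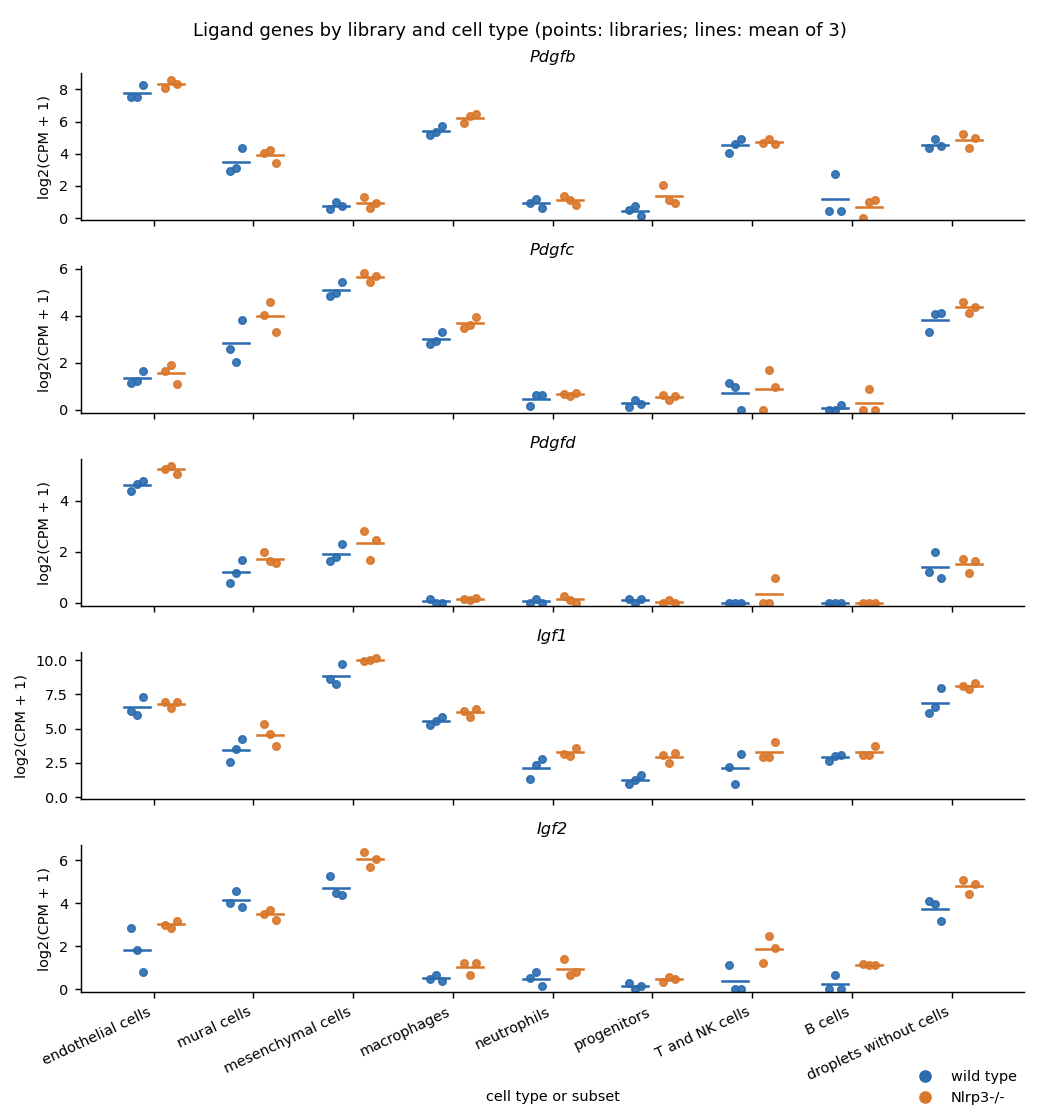
Level of the 5 ligand genes as log2(CPM + 1) on the vertical axis in each library (points, wild type blue and Nlrp3-/- orange) and the mean of 3 (lines), by cell type and in droplets without cells. In macrophages the Nlrp3-/- points for Pdgfb, at 58.6 to 86.5 CPM, all lie above the wild-type points, at 34.2 to 52.9 CPM.

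In Nlrp3-/- libraries, endothelial cells held 45.2% ± 6.12 and macrophages 50.4% ± 7.55 of Pdgfb UMIs, and mesenchymal cells 92.7% ± 2.96 of Igf1 UMIs and 97.8% ± 0.520 of Pdgfra UMIs. All such shares are over the cells kept, so they leave out the 10522 cells set aside in Nlrp3-/- replicate 1. In that library the set-aside mesenchymal cells held 14142187 UMIs at 691 CPM of Igf1, and the kept ones 18203348 UMIs at 1004 CPM. Of 55 tests of a gene in a type between genotypes, 1 passed an adjusted p of 0.05 in the edgeR quasi-likelihood test, and 20 had an unadjusted p under 0.05, against 15.3% of all genes over the same types. In DESeq2 5 of the 55 passed, 41 of which had an adjusted p, against 2.58% of all genes fitted. In the subsets 0 of 59 passed in edgeR, with 19 at an unadjusted p under 0.05, against 15.4% of all genes over the same subsets, and 3 passing in DESeq2, where 47 had an adjusted p and 1.83% of all genes fitted passed. The fitted change was towards a higher level in Nlrp3-/- in 44 of 55 and 49 of 59 tests, against 52.2% and 51.1% of the tests of all genes; the tests of the members share the same 6 libraries, and subsets are part of their types. Over all genes the share past the edgeR threshold was 0.108% in mesenchymal cells, 0.497% in macrophages, 0.313% in endothelial cells, 0.285% in mural cells, 0.341% in neutrophils, 0.457% in progenitors, 0.951% in T and NK cells and 0.317% in B cells. In subsets it was 0.45% in tenocytes, 0.109% in Pi16 Dpp4 fibroblasts, 0.173% in Cxcl5 Saa3 fibroblasts, 0.166% in dividing mesenchymal cells, 0.575% in C1q Mrc1, 0.276% in Arg1 Spp1 and 0.746% in MHC-II macrophages, 0.517% in osteoclasts and 0.479% in monocytes.

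The number of calls changed with the library left out, most of all with wild-type replicate 3. Without it, 10 of 55 tests in types and 11 of 62 in subsets passed in edgeR, against 9.81% and 10.6% of the tests of all genes. Without wild-type replicate 1 or 2 or Nlrp3-/- replicate 1 or 3, 0 passed in types or subsets, and without Nlrp3-/- replicate 2 it was 1 in each. The 10 without wild-type replicate 3 were Pdgfb and Pdgfc in macrophages, Pdgfc, Igf1 and Igfbp5 in mesenchymal cells, Pdgfb, Pdgfd and Igf1r in endothelial cells, Igfbp5 in mural cells and Igf1 in progenitors.

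The test that passed was Igf1 in progenitors, at a level far below that of its sources. The wild-type libraries had 0.915, 1.37 and 2.01 CPM (9, 8 and 20 UMIs) and the Nlrp3-/- libraries 7.43, 4.68 and 8.45 CPM (28, 69 and 66 UMIs), which did not overlap. The fitted log2 change was 2.02 ± 0.36 (edgeR adjusted p = 0.0464). Free RNA had 137 ± 97.4 CPM of Igf1 in wild-type and 276 ± 38.9 CPM in Nlrp3-/- libraries, and the 10 mesenchymal marker genes summed to 167 to 327 CPM in wild-type and 427 to 867 CPM in Nlrp3-/- progenitors, with all 10 detected. The 9 endothelial markers summed to 32.8 to 36.6 and 39.8 to 76.7 CPM there, also without overlap and with all 9 detected. The part of free RNA or of either list in the difference was not tested. The edgeR call was lost with doublets kept (adjusted p = 0.108), with the set-aside clusters kept (0.193), and without wild-type replicate 1 (0.283) or 2 (0.163) or Nlrp3-/- replicate 1 (0.0722) or 3 (0.185). The fitted change was above 0 in the 16 alternatives other than DESeq2, from 1.41 with doublets kept to 4.62 ± 1.27 with the set-aside clusters kept. In DESeq2 this test was not among those that passed. In Nlrp3-/- replicate 1 the 784 set-aside progenitors had 339.6 CPM of Igf1 and the 504 kept ones 7.43 CPM.

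In mesenchymal cells, 4 of the 10 genes had every Nlrp3-/- library above every wild-type library in CPM, namely Pdgfc, Igf1, Igf2 and Igfbp5, against 14.4% of all genes tested in these cells. None passed the edgeR threshold. The mix of subsets differed between libraries: tenocytes were 2.93%, 4.42% and 34.2% of wild-type and 2.97%, 27.1% and 18.9% of Nlrp3-/- mesenchymal cells, Cxcl5 Saa3 fibroblasts 41.4%, 48.0% and 23.0% against 7.83%, 19.0% and 25.4%, and dividing cells 26.4%, 25.7% and 17.9% against 8.37%, 11.4% and 10.7%. Chondrocytes, not tested because wild-type replicate 2 and Nlrp3-/- replicate 3 had only 18 and 3 of them, were 8.35%, 0.759% and 4.69% against 5.05%, 27.5% and 0.0971%. These are shares of cells, and in Nlrp3-/- replicate 2 the chondrocytes held 13715244 of the 33287989 mesenchymal UMIs. The shares of 3 unnamed clusters differed as well: one led by Actg2, Acta2 and Tagln was 5.08%, 5.10% and 9.92% against 18.5%, 3.18% and 14.7%, one led by Eln, Nrk and Zim1 0.689%, 0.885% and 4.02% against 25.7%, 1.83% and 12.9%, and one led by Eln, Adamts16 and Cdh3 1.21%, 0.506% and 3.02% against 18.6%, 0.939% and 8.51%. The cluster led by Eln, Nrk and Zim1 gave 2.29%, 2.20% and 7.02% of mesenchymal Igf1 UMIs in the wild type and 49.6%, 2.09% and 20.7% in Nlrp3-/-. The 4 subsets tested held 74.2%, 85.9% and 78.1% of wild-type but 20.4%, 60.0% and 63.4% of Nlrp3-/- mesenchymal cells, so the subset levels describe a minority of Nlrp3-/- replicate 1. Mural markers summed to 1112 to 1291 CPM in wild-type and 886 to 1029 CPM in Nlrp3-/- mesenchymal cells, without overlap and with all 10 detected. The part of the mix and of these markers in the levels over the whole type was not tested.

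Igf1 in mesenchymal cells was 391, 300.5 and 839 CPM in the wild type and 1004, 1024 and 1123 CPM in Nlrp3-/-. The Nlrp3-/- libraries were close together, and wild-type replicate 3 lay nearer to them than to the other wild-type libraries. The fitted log2 change was 0.98 ± 0.37 (edgeR adjusted p = 0.377), and 1.52 without wild-type replicate 3 (edgeR adjusted p = 0.0408). Tenocytes had 2269, 1017 and 1355 CPM against 1488, 2117 and 1857 CPM and Pi16 Dpp4 fibroblasts 1744, 1072 and 1909.6 CPM against 1019, 1948 and 2008 CPM, with overlapping ranges and fitted changes of 0.19 ± 0.27 and -0.08 ± 0.29. Cxcl5 Saa3 fibroblasts had 464, 254 and 984 CPM against 1649, 2749 and 1079 CPM, which did not overlap (log2 change 1.60 ± 0.49, edgeR adjusted p = 0.253). Mural markers in these fibroblasts summed to 943 to 1232 CPM in wild-type and 393 to 532 CPM in Nlrp3-/- libraries, with up to 2 of the 10 at 0, and their part in the difference was not tested.

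Igf2 in mesenchymal cells was 37.6, 21.5 and 19.7 CPM in the wild type and 83.4, 51.0 and 65.9 CPM in Nlrp3-/-. The groups did not overlap, and the fitted log2 change was 1.28 ± 0.29 (adjusted p = 0.308 in edgeR and 0.00577 in DESeq2). In Pi16 Dpp4 fibroblasts the levels were 2.03, 7.196 and 40.5 CPM (1, 13 and 21 UMIs) against 115, 96.6 and 229 CPM (24, 55 and 597 UMIs), a fitted change of 3.31 ± 0.58 (edgeR adjusted p = 0.0614), the lowest adjusted p among the subsets. Without wild-type replicate 3, the highest of the wild type, the change in Pi16 Dpp4 fibroblasts was 4.50 (edgeR adjusted p = 0.00569). In tenocytes the levels were 14.1, 15.5 and 24.2 CPM against 126, 42.7 and 46.6 CPM, again without overlap (1.53 ± 0.38, edgeR adjusted p = 0.139). Macrophage markers summed to 89.2 to 146 CPM in wild-type and 158 to 307 CPM in Nlrp3-/- Pi16 Dpp4 fibroblasts, with up to 3 of 10 at 0, and their part was not tested. Dividing mesenchymal cells had 3.90, 1.67 and 2.14 CPM against 8.41, 0.636 and 3.65 CPM, which overlapped. In Cxcl5 Saa3 fibroblasts every Nlrp3-/- library was above every wild-type library, as for 15.5% of all genes tested there, and edgeR did not pass it. Igf2 in free RNA was 13.03 ± 4.49 CPM in wild-type and 27.7 ± 6.15 CPM in Nlrp3-/- libraries.

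**Figure D3:**
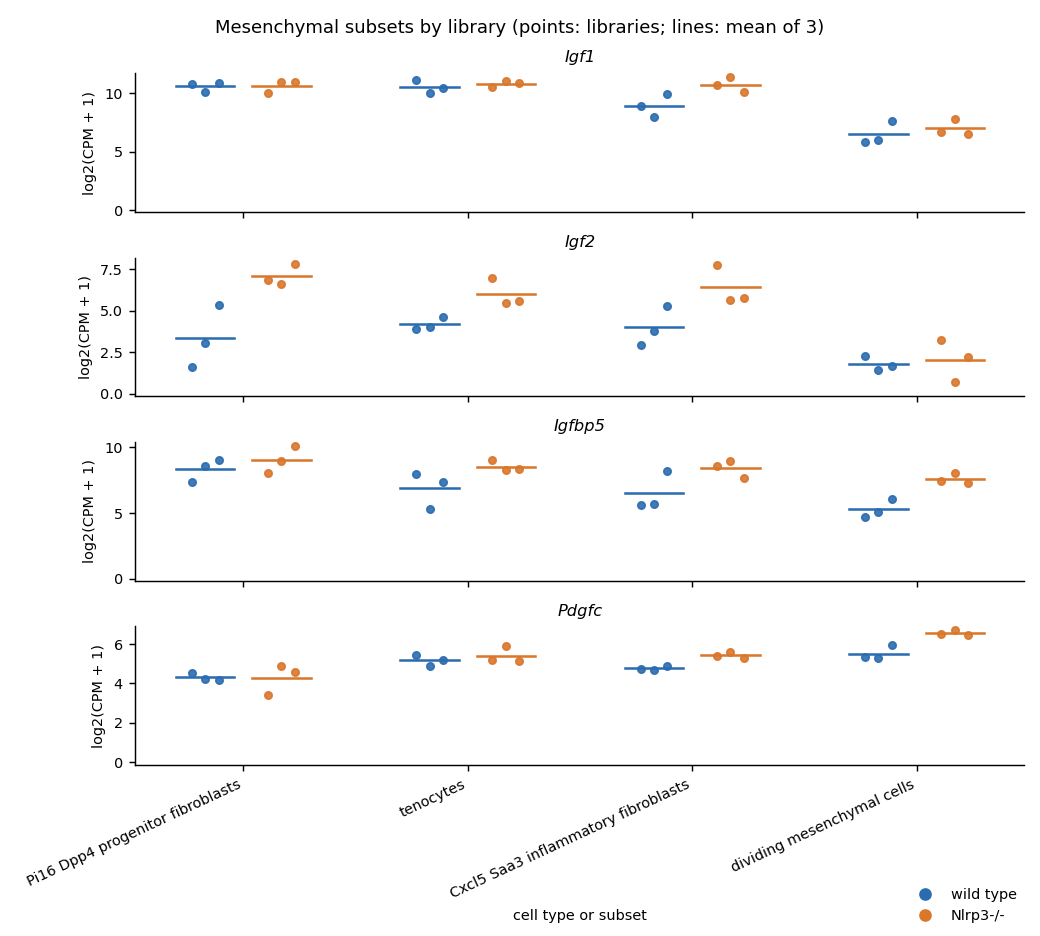
Igf1, Igf2, Igfbp5 and Pdgfc as log2(CPM + 1) on the vertical axis in 4 mesenchymal subsets, by library (points, wild type blue and Nlrp3-/- orange) with the mean of 3 (lines). Igf1 overlaps between genotypes in tenocytes, with a fitted change of 0.19 ± 0.27, while Igf2 does not overlap there.

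Igfbp5 in mesenchymal cells was 52.4, 77.9 and 156 CPM in the wild type and 177, 291 and 256 CPM in Nlrp3-/-, without overlap (log2 change 1.28 ± 0.42, edgeR adjusted p = 0.363). Dividing mesenchymal cells had 24.4, 33.1 and 67.6 CPM against 169.8, 264 and 158 CPM, well apart (2.16 ± 0.36, adjusted p = 0.0804 in edgeR and 6.13e-08 in DESeq2). Mural markers in the dividing cells summed to 1472 to 1723 CPM in wild-type and 951 to 1424 CPM in Nlrp3-/- libraries, with up to 1 of 10 at 0, and their part was not tested. Tenocytes had 251, 39.2 and 165 CPM against 511, 304 and 321 CPM (1.31 ± 0.44, edgeR adjusted p = 0.272). In Pi16 Dpp4 fibroblasts and Cxcl5 Saa3 fibroblasts the ranges overlapped. Igfbp5 in free RNA was 25.01, 36.8 and 72.6 CPM against 86.1, 102 and 96.9 CPM.

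Pdgfc in mesenchymal cells was 27.8, 30.7 and 41.7 CPM in the wild type and 55.4, 42.8 and 50.8 CPM in Nlrp3-/- (log2 change 0.50 ± 0.18, edgeR adjusted p = 0.372). The gap between the groups was narrow. In dividing mesenchymal cells it was 39.3, 37.9 and 60.6 CPM against 90.1, 105 and 86.1 CPM, which were further apart (0.93 ± 0.19, adjusted p = 0.164 in edgeR and 0.00545 in DESeq2). The receptor genes overlapped between genotypes in these cells. Pdgfra had 125, 174 and 159 CPM against 161, 124 and 161 CPM (-0.11 ± 0.17), Pdgfrb 109, 153 and 134 CPM against 187, 73.0 and 163 CPM (0.02 ± 0.33), and Igf1r 39.9, 38.1 and 50.3 CPM against 52.5, 68.0 and 45.8 CPM (0.31 ± 0.20). Igfbp4 also overlapped, with 1077, 916 and 1164 CPM against 1107, 859 and 1472 CPM (0.06 ± 0.22).

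In macrophages, 6 of the 9 genes tested had every Nlrp3-/- library above every wild-type library, namely Pdgfb, Pdgfc, Igf1, Igf2, Igfbp4 and Igfbp5, against 22.2% of all genes tested. None passed the edgeR threshold. Pdgfb was 34.2, 40.5 and 52.9 CPM in the wild type and 58.6, 79.8 and 86.5 CPM in Nlrp3-/- (log2 change 0.66 ± 0.16, adjusted p = 0.128 in edgeR and 0.0133 in DESeq2). Osteoclasts had 72.3, 76.6 and 142 CPM against 158, 177 and 189 CPM and did not overlap (0.70 ± 0.18, adjusted p = 0.108 in edgeR and 0.0196 in DESeq2), nor did C1q Mrc1 macrophages, with 37.5, 45.5 and 54.7 CPM against 58.5, 80.0 and 64.2 CPM (0.43 ± 0.15, edgeR adjusted p = 0.16). In Arg1 Spp1 macrophages 38.1, 32.2 and 27.6 CPM overlapped with 36.6, 54.1 and 64.5 CPM. Osteoclasts were 5.40%, 5.94% and 6.74% of wild-type and 7.44%, 10.5% and 9.45% of Nlrp3-/- macrophages. These are shares of cells, whereas the level is a sum of UMIs. Osteoclasts held 3569615, 5340095 and 3188885 of 23023201, 28807838 and 17378534 macrophage UMIs in the wild type. In Nlrp3-/- they held 2850397, 3916576 and 6398454 of 17625416, 16784565 and 29814788. The part of osteoclasts in the level over all macrophages was not tested.

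Macrophage Pdgfc was 6.04, 6.53 and 8.92 CPM against 10.2, 11.2 and 14.3 CPM (log2 change 0.58 ± 0.17, edgeR adjusted p = 0.151), and macrophage Igf1 37.6, 46.8 and 57.1 CPM against 79.1, 57.7 and 87.5 CPM (0.51 ± 0.19, edgeR adjusted p = 0.19). For Igf1 the lowest Nlrp3-/- value was just above the highest wild-type value. Macrophage Igf1 was below its level in free RNA in each library, which was 70.1, 93.2 and 249 CPM in the wild type and 272, 239.7 and 317 CPM in Nlrp3-/-, and the part of free RNA in the difference was not tested. C1q Mrc1 macrophages, the leading subset for both genes, were 15.7%, 15.8% and 16.5% of wild-type and 19.9%, 19.0% and 26.2% of Nlrp3-/- macrophages, without overlap, and the part of this share in either level was not tested. C1q Mrc1 macrophages had 107, 139 and 164 CPM of Igf1 against 204, 175 and 190.0 CPM (0.35 ± 0.15, edgeR adjusted p = 0.225). Macrophage Igfbp5 was 0.738, 2.33 and 1.38 CPM against 6.81, 3.28 and 3.62 CPM, below its level in free RNA. It passed in DESeq2 (log2 change 1.45, DESeq2 adjusted p = 0.0261) but not in edgeR. Igf2 was at or below 1.31 CPM in each library. Mesenchymal markers summed to 309 to 609 CPM in wild-type and 547 to 1228 CPM in Nlrp3-/- macrophages, with all 10 detected, and mural markers to 26.6 to 34.6 and 43.5 to 50.0 CPM, with up to 1 of 10 at 0; their part in these low levels was not tested.

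Endothelial Pdgfb was 184, 184 and 304 CPM in the wild type and 267, 381 and 322 CPM in Nlrp3-/-, which overlapped (log2 change 0.40 ± 0.19, edgeR adjusted p = 0.261). Of 9 genes tested in endothelial cells, 3 had every Nlrp3-/- library above every wild-type library, against 18.2% of all genes. These were Pdgfd, with 19.7, 24.3 and 26.3 CPM against 37.1, 40.1 and 32.3 CPM (0.50 ± 0.15, edgeR adjusted p = 0.146), Igf1r, with 27.0, 32.7 and 44.7 CPM against 57.4, 57.6 and 64.8 CPM (0.67 ± 0.17, adjusted p = 0.12 in edgeR and 0.04 in DESeq2), and Pdgfrb, with 5.64, 11.9 and 5.41 CPM against 29.5, 14.6 and 12.3 CPM. Mural markers summed to 632 to 1085 CPM in wild-type and 794 to 1091 CPM in Nlrp3-/- endothelial cells, mesenchymal markers to 302 to 524 and 706 to 1108 CPM, and macrophage markers to 109.7 to 134 and 237 to 305 CPM, with all genes of the lists detected. The mesenchymal and macrophage sums did not overlap between genotypes, and the part of any list in these differences was not tested. Endothelial Igf1 overlapped, with a fitted change of 0.07 ± 0.28.

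In mural cells Igfbp5 was 450.2, 587 and 640.2 CPM in the wild type and 917, 1029.6 and 1339 CPM in Nlrp3-/-. The groups were well apart, and the fitted log2 change was 0.86 ± 0.18 (adjusted p = 0.104 in edgeR and 0.00291 in DESeq2). Mural cells were few, with 112, 158 and 79 in the wild-type and 219, 136 and 167 in the Nlrp3-/- libraries. Pdgfrb was 596, 598 and 782 CPM against 762, 795 and 807 CPM, which overlapped (0.15 ± 0.15).

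**Figure D4:**
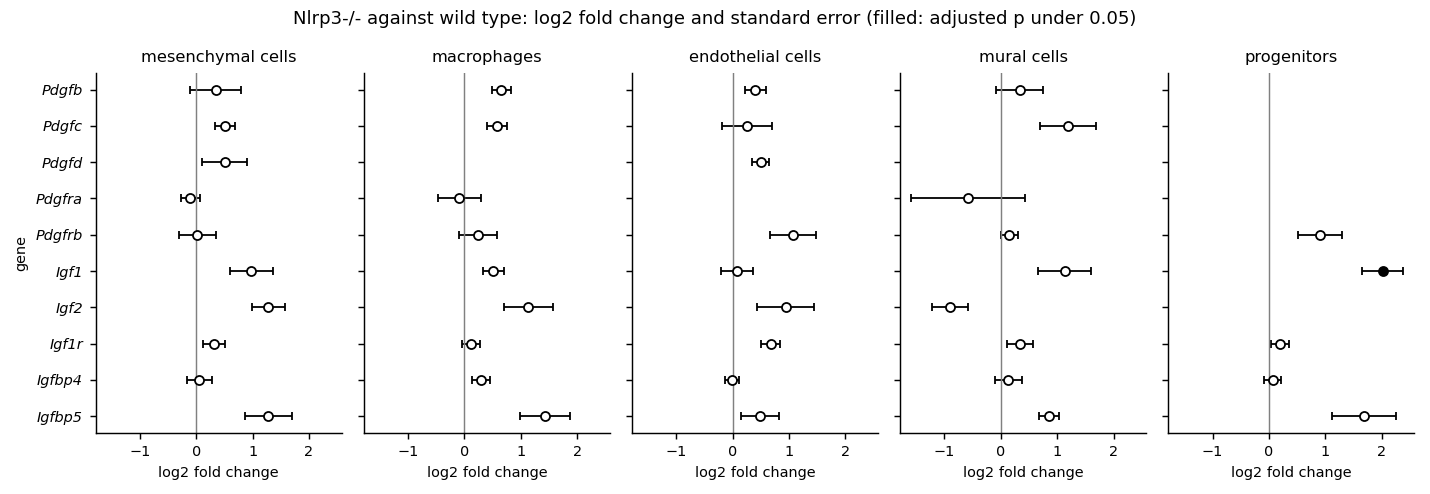
Fitted log2 fold change of Nlrp3-/- against wild type on the horizontal axis for each gene tested in 5 types, with its standard error; the circle is filled where the edgeR adjusted p is under 0.05, which is only Igf1 in progenitors (2.02 ± 0.36). Pdgfra and Pdgfrb lie near 0 in mesenchymal cells, at -0.11 ± 0.17 and 0.02 ± 0.33.

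Neutrophil Igf1r was 148, 205 and 261 CPM in the wild type and 201, 199 and 185 CPM in Nlrp3-/-, which lay inside the wild-type range (log2 change -0.29 ± 0.20, edgeR adjusted p = 0.541). Neutrophils held 49.8% ± 3.98 of Igf1r UMIs in the wild type and 32.2% ± 1.56 in Nlrp3-/-, and numbered 4818, 4588 and 2971 cells against 2025, 2674 and 2450 cells. These shares leave out the set-aside cells of Nlrp3-/- replicate 1, of which the mesenchymal ones had 61.4 CPM of Igf1r. In neutrophils Igf1 was 3.88 ± 2.32 CPM in the wild type and 8.78 ± 2.26 CPM in Nlrp3-/-, and Igfbp5 1.10 ± 0.452 and 3.59 ± 0.979 CPM, all below free RNA. In progenitors 3 of 5 genes tested did not overlap, namely Pdgfrb, Igf1 and Igfbp5, against 23.9% of all genes, and each was at or below 8.45 CPM in all libraries. The more abundant Igfbp4 (213 ± 9.42 against 258 ± 51.7 CPM) and Igf1r (49.6 ± 12.98 against 65.1 ± 11.8 CPM) overlapped in progenitors.

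**Figure D5:**
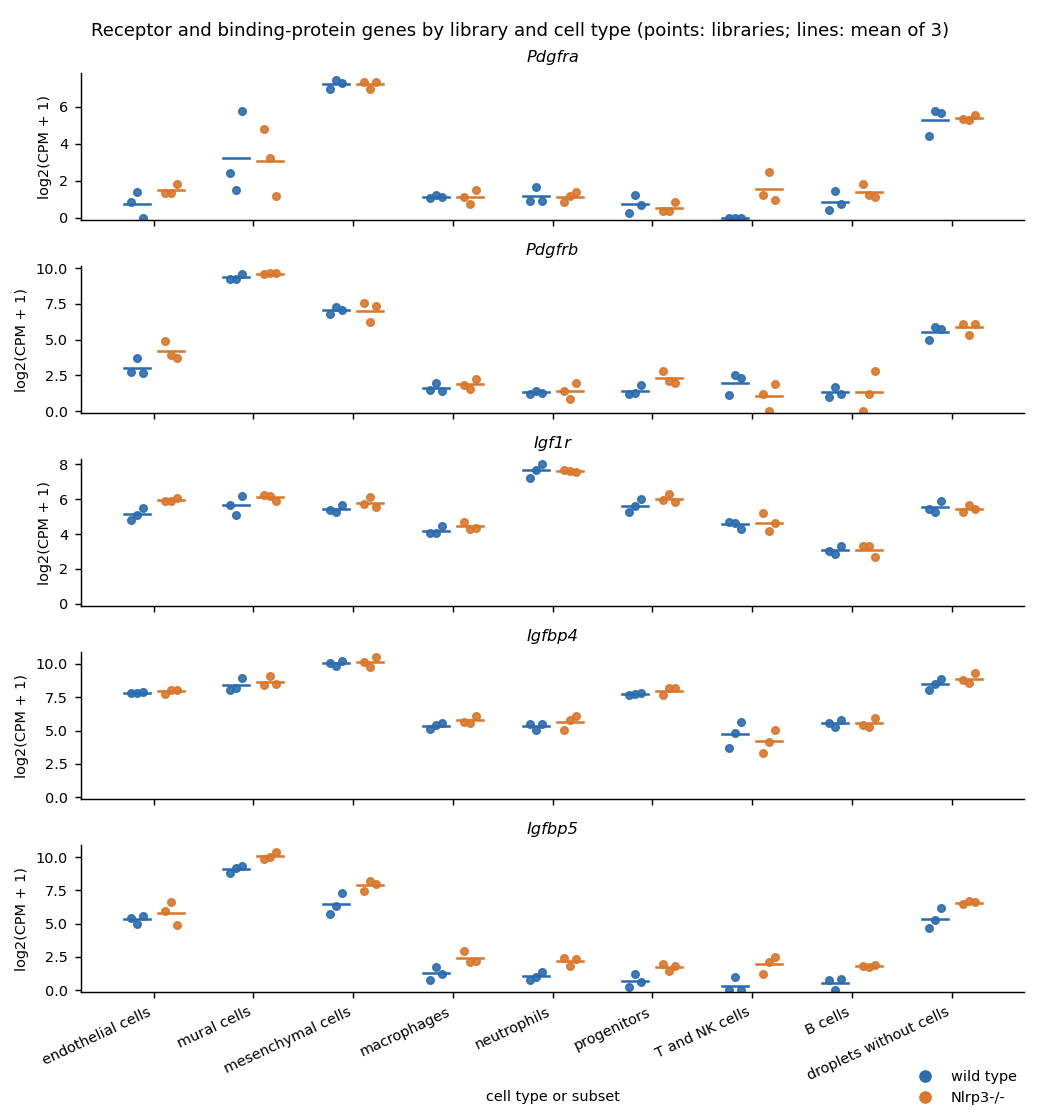
Level of the receptor and binding-protein genes as log2(CPM + 1) on the vertical axis in each library (points, wild type blue and Nlrp3-/- orange) and the mean of 3 (lines), by cell type and in droplets without cells. Igfbp5 in mural cells is higher in all Nlrp3-/- points (917, 1029.6 and 1339 CPM) than in the wild-type points (450.2, 587 and 640.2 CPM), while Igf1r in neutrophils overlaps.

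Whether the genotype effect differed between mesenchymal cells and macrophages was tested over 15931 genes as an interaction. Of the 10 genes 0 passed in edgeR, 0 had an unadjusted p under 0.05 and 0 passed in DESeq2, and 0% of all genes passed, of which 1533 had an unadjusted p under 0.05. The lowest adjusted p was that of Igf1, with an excess in mesenchymal cells of 0.64 ± 0.33 (edgeR adjusted p = 0.6). Of the list of 40 other genes, 0 passed in edgeR between genotypes in any type or subset. Over the 8 types 47 of 244 tests of this list had an unadjusted p under 0.05, against 15.3% of all genes. In macrophages the count was 12 of 34 (20.6% of all genes), with a median log2 fold change of 0.13 beside 0.01 over all genes, in endothelial cells 10 of 33 (20.4%), with 0.23 beside 0.02, in progenitors 8 of 30 (18.2%) and in B cells 4 of 26 (8.44%). It was 4 of 38 in mesenchymal cells (12.7%), 4 of 33 in mural cells (13.4%), 3 of 31 in neutrophils (13.9%) and 2 of 19 in T and NK cells (12.6%), each a smaller share than that of all genes.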

How the data were processed

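Cells of the repaired enthesis were sequenced with 10x 3′ chemistry. The authors deposited unfiltered matrices of UMI counts per gene and barcode; Cell Ranger 2.1.1 and mm10 are named in the submitters' processing notes, and the matrix header names Cell Ranger 4. From these counts, barcodes with at least 500 UMIs, 200 genes and at most 10% mitochondrial UMIs that differed from free RNA (false discovery rate 0.01) were kept, the highest Scrublet scores (0.8% per 1000 cells) were removed as doublets, and cells were clustered (scanpy 1.11.5, Leiden resolution 1.0) without the 10 genes, the 40 other pathway genes, Nlrp3, Xist and Y-linked genes. Clusters with over 75% of cells from 1 library were set aside, a choice made after the clusters were seen. Types and subsets needed 20 cells in each library. Summed counts were tested with edgeR 4.0.16 (R 4.3.3, quasi-likelihood, TMM, filterByExpr, Benjamini-Hochberg over all genes tested), with library as a block within the wild type. A subset was tested against the mean of the fitted log levels of the other named subsets of its class. SE is the log2 fold change divided by the root of F. DESeq2 1.42.0, other filters and leaving out each library were alternatives. All members were named; pathway genes were named by size of change (up to 3 each way per comparison, past an adjusted p of 0.05 and at 20 CPM), and like-pattern genes as the 3 highest correlations. Members and lists were chosen with earlier results of these data known. Gene IDs were matched to GENCODE vM21 for 32235 of 32285. UMIs carry counting error, so levels near 0 are imprecise.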

Additional observations from a re-analysis of the deposited data

Results flagged for a closer look

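Igf2 separated the genotypes in opposite directions in different cells. Every Nlrp3-/- library was above every wild-type library in mesenchymal cells (log2 fold change 1.28) and in macrophages (1.13), and every one was below in mural cells (-0.90). Of all genes tested, 14.4% were above in this way in mesenchymal cells and 22.2% in macrophages, and 4.66% were below in mural cells. In macrophages Igf2 was near 0 and far below its level in free RNA in each library, and the part of free RNA was not tested. Mural cells had 15.2, 23.1 and 13.2 CPM in the wild type and 10.3, 12.0 and 8.40 CPM in Nlrp3-/-, from 21, 37 and 12 UMIs and 14, 17 and 13 UMIs. None of these passed the edgeR threshold, and the difference between mural cells and the other types was not tested. Between mesenchymal cells and macrophages it was 0.20 ± 0.40 (edgeR adjusted p = 0.894).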

How the results depend on the processing

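Calls between genotypes depended on the setting. By type, where 1 of 55 passed, 0 of 58 passed with doublets kept and 0 of 55 with the set-aside clusters kept. With no filter on low counts 7 of 79 passed, in DESeq2 5 of the 41 with an adjusted p, and 0 to 10 when a library was left out. By subset, where 0 of 59 passed in edgeR, 1 of 66 passed with doublets kept, 11 of 90 with no filter and 3 of the 47 with an adjusted p in DESeq2. When a library was left out, 0 to 11 passed. Over all genes the calls were 332 by type (3123 with no filter, 2271 with DESeq2, 158 to 8886 leaving out a library) and 355 by subset (4536, 1668, and 150 to 9768). The highest of each was without wild-type replicate 3, and the cause was not tested. It was 9.81% of the tests of all genes by type and 10.6% by subset. The DESeq2 calls were 2.58% and 1.83% of all genes fitted. For no filter, doublets kept and set-aside clusters kept, the share of all genes is not given. With the replicate number as a block, 1 passed by type and 3 by subset (Igf2 and Igfbp5 in tenocytes, Igf2 in Pi16 Dpp4 fibroblasts), and 300 and 324 over all genes; same-numbered libraries of the 2 genotypes did not deviate together (correlations -0.147, -0.552 and -0.123 in mesenchymal cells), so the numbers were not taken as pairs. The wild-type counts ranged from 56 to 62 between types and 36 to 44 between subsets over the settings run, and the interaction count was 0 in each. Direction and side of the threshold were followed only for chosen results. These were 37 results between genotypes, all without overlap between the genotypes, the 62 and 38 wild-type results past the threshold, and 1 interaction. That choice favours a kept direction, and genotype results with overlapping libraries were not followed. Direction turned in 4 results: Igfbp5 in progenitors between genotypes (1.69, and -0.083 with doublets kept), Pdgfrb in endothelial cells against macrophages (1.73, -0.81 at Leiden resolution 2.0), and, without wild-type replicate 2, Pdgfd in dividing mesenchymal cells (-1.30, ranging from -1.54 to 0.088 when a library was left out) and Pdgfra in tenocytes (-0.86, ranging from -1.03 to 0.098); the cause was not tested. Of 605 alternatives for the 37 genotype results, 555 kept direction and side of the threshold, 6 lost the call and 43 gained it. Of 558 and 304 for the chosen results of wild-type types and subsets, 542 and 287 kept both. No subset values came from resolution 2.0. Small subsets and levels of a few UMIs limit the precision.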

Other observations

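The cells set aside in Nlrp3-/- replicate 1 differed from those kept of the same type in that library. The 8075 set-aside mesenchymal cells had 1751 UMIs per cell and the 2019 kept cells 9016. Set-aside mesenchymal cells had 691 CPM of Igf1, 97.4 of Pdgfra and 24.9 of Pdgfb, against 1004, 161 and 1.48 CPM in the kept cells. The 1225 set-aside endothelial cells had 464 CPM of Igf1 and 115 of Pdgfb, against 124 and 267 CPM. These are values of 1 library, with no replicate.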
